A study of Mus musculus with 2254 samples.

Results

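The collagen VI chain genes Col6a1, Col6a2, Col6a3, Col6a5 and Col6a6 are 5 of the 30950 genes in a table of read counts from single mouse brain cells. They were picked by symbol because several of them differed between Notch3 KO and Notch3 WT plates. The values behind that choice are therefore given as a description and with no test. In smooth muscle-like cells the KO minus WT difference, on the log2(CPM + 1) scale over plates, was 5.25 for Col6a1 and 3.40 for Col6a2, and in ependymal-like cells it was 5.42 for Col6a5. Col6a3 and Col6a6 were taken as members of the same family. CPM scales counts to the total of a library, here of all cells of 1 class on 1 plate added together.

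All cells came from the brains of adult C57BL/6 mice that carried SM22-Cre and Rosa26-stop-tdTomato. In this reporter line a smooth muscle promoter drives Cre, which switches on a red fluorescent protein, so the sorted cells may hold any type in which that promoter was once active. The tested mice were labelled Notch3 KO and their controls Notch3 WT, and both carried the reporter. Cells were sorted by fluorescence into multi-well plates and sequenced by Smart-seq2, which copies polyadenylated RNA along its full length. The labels name neither animals nor sort gates, so each genotype counts as 1 sample and plates are only a description of spread. Plates 043, 467 and 471 held the KO cells, plates 044, 468 and 469 the WT cells, and after filtering 1126 KO and 1126 WT cells were left, with a median total per deposited cell of 291872 counts. Cell classes were rebuilt from clusters and named after fixed marker lists. They were clustered without Notch3 or any collagen VI gene.

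Collagen VI is a matrix protein that forms beaded microfibrils close to the basement membranes of muscle, fat, nerve and vessels. The α1, α2 and α3 chains, encoded by Col6a1, Col6a2 and Col6a3, join into a triple helix inside the cell, pair further into tetramers and are then secreted. Mutations in any of these 3 genes cause human muscle diseases such as Bethlem myopathy and Ullrich congenital muscular dystrophy. Col6a5 and Col6a6 encode chains that resemble α3, rich in von Willebrand factor A domains, and were described as possible partners that can take its place. Notch3 is a receptor of vascular smooth muscle cells and pericytes.

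The genes sit in pairs on the mouse genome, build GRCm38. Col6a1 lies at chr10:76708792-76726168 and Col6a2 at chr10:76595762-76623630, both on the minus strand, with 85161 bases and no protein-coding gene between them. Col6a5, at chr9:105856078-105960643, and Col6a6, at chr9:105687809-105828160, are also neighbours on the minus strand, 27917 bases apart. Col6a3 stands alone at chr1:90765923-90843971, again on the minus strand. Exons of Col6a6 overlap those of Gm38314 on the plus strand, and the strand setting of the counting is not given in the sources used here, so reads of these overlapping exons cannot be told apart.

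The 3 genes whose plates stood apart are shown by the 250 bases that precede the start RefSeq gives them (GRCm38.p6), read 5′ to 3′ on the minus strand. For Col6a2, the farther upstream of 2 listed starts is shown. The windows lie at chr10:76726045-76726294 for Col6a1, chr10:76623631-76623880 for Col6a2 and chr9:105960644-105960893 for Col6a5, and capitals mark the motif matches described after them.
Col6a1: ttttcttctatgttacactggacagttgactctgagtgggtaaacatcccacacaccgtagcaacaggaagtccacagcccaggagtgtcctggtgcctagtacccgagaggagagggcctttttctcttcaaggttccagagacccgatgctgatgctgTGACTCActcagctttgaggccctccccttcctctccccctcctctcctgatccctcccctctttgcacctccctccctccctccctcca
Col6a2: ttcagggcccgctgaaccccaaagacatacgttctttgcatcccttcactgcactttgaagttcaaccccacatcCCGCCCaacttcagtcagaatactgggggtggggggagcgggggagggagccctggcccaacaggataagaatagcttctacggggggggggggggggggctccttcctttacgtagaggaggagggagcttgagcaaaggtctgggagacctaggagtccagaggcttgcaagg
Col6a5: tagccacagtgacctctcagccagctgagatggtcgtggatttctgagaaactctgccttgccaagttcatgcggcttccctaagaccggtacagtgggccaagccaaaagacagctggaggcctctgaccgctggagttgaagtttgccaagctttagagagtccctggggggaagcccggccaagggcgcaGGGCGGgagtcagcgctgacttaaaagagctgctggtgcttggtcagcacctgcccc

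Both strands of these windows were searched for the RBPJ core TGGGAA, the AP-1 element TGANTCA, the GC box GGGCGG, the TATA box TATAAA and the CArG box. Col6a1 held an AP-1 match that begins 90 bases before the start, and 6.75% of all 32851 RefSeq promoter windows of this length hold one. This RefSeq start lies inside the Col6a1 gene span given above, which follows the GENCODE annotation, and so does the match. The Col6a2 window shown held a GC box on the other strand, beginning 175 bases before the start, and the Col6a5 window held one beginning 57 bases before it. The window of the second Col6a2 start held further GC boxes on the other strand, beginning 67, 15 and 11 bases before that start. A GC box is common, with a match in 32.7% of all windows. No RBPJ core, which is the letters bound by the DNA-binding partner of Notch, was matched in the windows of Col6a1, Col6a2, Col6a3 or Col6a5. Col6a6 held 1, likewise inside its gene span given above, against 21.6% of all windows with a match. A match is a run of letters and not a bound site, and a window without one says only that those letters are not in it.

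In the smooth muscle-like class Notch3, the targeted gene, had 75.1, 109.6 and 118 CPM on KO plates 043, 467 and 471, against 214, 692 and 937 CPM on WT plates 044, 468 and 469. Its KO plates all lay below its WT plates, as they did for 4.36% of the 9570 genes with enough reads in this class, and the labels do not say which part of the gene the KO allele lacks. Each of the 12 smooth muscle markers had reads on each plate, and Myh11, the smooth muscle myosin heavy chain, had 3263, 4131 and 4690 CPM on KO plates against 4086, 5370 and 4513 CPM on WT plates, which overlap. The classes were filled unevenly. Smooth muscle-like cells numbered 243, 129 and 211 on the KO plates and 327, 20 and 40 on the WT plates, so WT plates 468 and 469 were the thinnest.

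Col6a1, the α1 chain gene, was higher in KO smooth muscle-like cells, with 119, 78.2 and 116 CPM on KO plates 043, 467 and 471, against 13.3, 0.335 and 0.0634 CPM on WT plates 044, 468 and 469. The lowest KO plate lay above the highest WT plate, a separation in this direction shared by 4.61% of the genes with enough reads. The means were 104 ± 22.8 CPM for KO and 4.56 ± 7.56 CPM for WT (SD, n = 3 plates each). On WT plates 468 and 469 it rested on 2 reads and 1 read. The log2 difference was 3.07 between plates 043 and 044 and 6.34 among the other 4 plates. Plate 044 was the only WT plate with over 100 smooth muscle-like cells.

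Col6a2, the α2 chain gene and genomic neighbour of Col6a1, had 212, 153 and 134 CPM in the same class on the KO plates, against 67.9, 15.9 and 2.22 CPM on the WT plates. Here too KO and WT plates stood apart, with means of 166 ± 41.0 CPM in KO and 28.7 ± 34.6 CPM in WT (SD, n = 3 plates each). The log2 difference was 1.63 between plates 043 and 044 and 4.29 among the other 4 plates. On the small WT plates 1 cell carried most of the signal: 97.9% of the reads on plate 468 and 91.4% on plate 469. Leaving out the highest cell of each plate, an alternative chosen after seeing the data, took the log2 difference to 5.06.

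By the size rule used to describe differences, a mean of at least 10 CPM and a read in at least 10% of cells in KO or WT, at least a 2-fold difference, and plates of KO and WT that do not overlap, both Col6a1 and Col6a2 were higher in KO smooth muscle-like cells. In this class 2.37% of the 9570 genes with enough reads met the rule as higher in KO and 0.94% as lower. Since the genes were chosen on this contrast, nothing is read from that comparison. The other 3 chains had too few reads for the rule, so 2 of the 5 members passed its floor in this class. Col6a1 reached the floor of 10 CPM only in KO cells, since its WT mean was 4.56 CPM.

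Col6a3, the gene of the large α3 chain, had 9.01, 8.26 and 23.1 CPM in this class on the KO plates, against 11.3, 0 and 0 CPM on the WT plates. KO and WT plates overlapped, since plate 044 lay above KO plates 043 and 467. It was read in 7.89% of KO cells and 3.62% of WT cells of the class, below the 10% the rule asks for. A count of 0 among the 20 cells of plate 468 allows a share of up to 15.0%, and among the 40 cells of plate 469 up to 7.50%. Col6a5 was read in 1.37% of 583 KO cells and in 0 of 387 WT cells, which allows up to 0.775%, and Col6a6 was read in 0.858% of KO and 0.258% of WT cells.

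**Figure D1:**
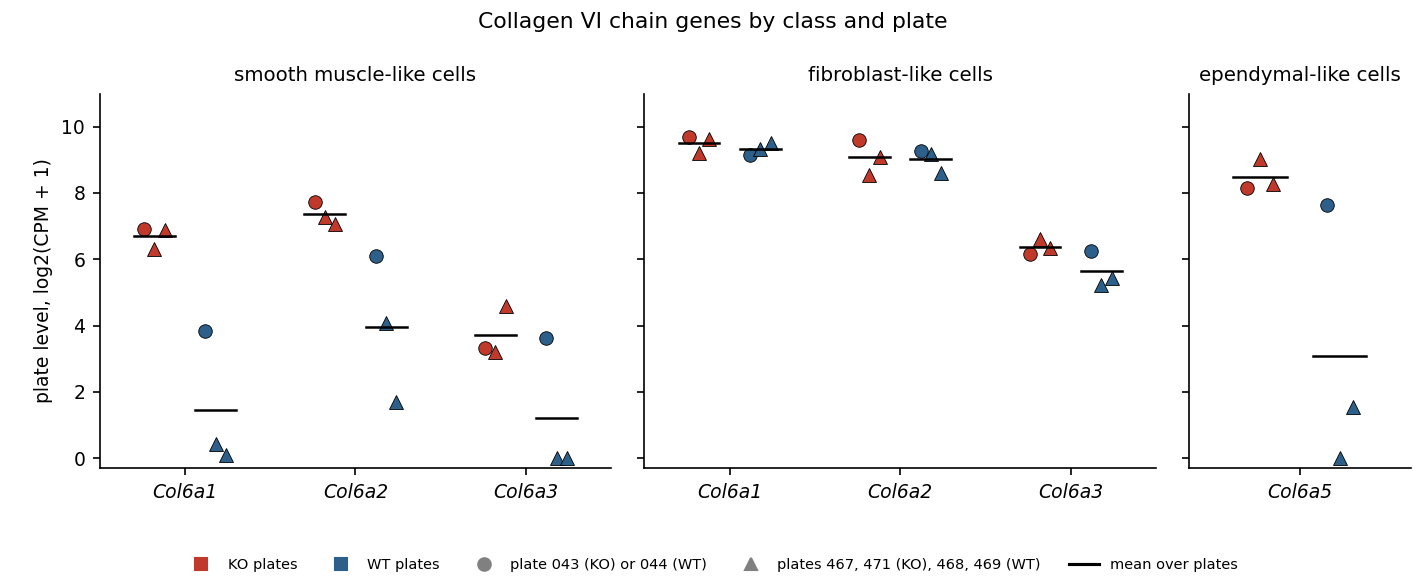
Level of collagen VI chain genes on each plate as log2(CPM + 1), with KO plates in red left of WT plates in blue and a line at the mean over plates. In smooth muscle-like cells Col6a1 and Col6a2 had all KO plates above all WT plates, in fibroblast-like cells the plates overlapped for each chain drawn, and in ependymal-like cells Col6a5 on WT plate 044, at 199 CPM, lay far nearer to the KO plates than did WT plates 468 and 469.

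More KO than WT cells had a read of these genes. Col6a1 was read in 31.9% of KO smooth muscle-like cells (exact 95% interval 28.1% to 35.9%, 583 cells) and in 6.46% of WT ones (4.22% to 9.39%, 387 cells). By plate these shares were 35.4%, 25.6% and 31.8% on KO plates, against 6.73%, 10.0% and 2.50% on WT plates. Col6a2 was read in 59.2% of KO cells (55.1% to 63.2%) and 25.6% of WT cells (21.3% to 30.2%). The intervals cover counting error only, because amplified reads without molecular identifiers are not independent molecules.

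Equal depth kept this order. After each cell was thinned to 50000 counts, Col6a1 was read in 25.7% of the KO cells against 4.91% of the WT cells and Col6a2 in 53.5% against 19.6%. Astrocyte-like WT cells, which should lack these chains, had a Col6a1 read in 2.66% of 263 cells (1.08% to 5.41%) and a Col6a2 read in 3.04%. Their median was 258291 counts per cell. Of these cells 172 lay on plate 468 and 91 on plate 469, so they give no background for the KO plates or WT plate 044. On plates 468 and 469 a Col6a1 read was found in 10.0% and 2.50% of smooth muscle-like cells, from 2 cells and 1 cell. The astrocyte-like shares on the same plates were 2.91% and 2.20%. At least 5 Col6a1 reads were found in 16 of the 387 WT smooth muscle-like cells, all on plate 044, and in 0 of the 263 astrocyte-like cells. Among cells with a read the medians were 88.0 and 4.89 CPM, and thinned shares were 4.91% and 0.760%.

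Among cells with at least 1 read, pooled over plates, levels also ran higher in KO. Col6a1 had a median of 278 CPM in 186 KO smooth muscle-like cells (quartiles 54.9 and 472 CPM), against 88.0 CPM in 25 WT cells. Of those WT cells 22 lay on plate 044, where the median was 122 CPM. By plate the KO medians were 247, 245 and 316 CPM. At least 100 CPM was reached by 131 KO cells and by 12 WT cells. For Col6a2 the median was 220 CPM in 345 KO cells and 134 CPM in 99 WT cells.

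The smooth muscle-like class held 5 clusters, and WT plates filled them differently from KO plates. Cluster 4, led by the contractile genes Actg2 and Cnn1, had 82 KO and 153 WT cells, nearly all of them on plates 043 and 044, and Col6a1 was read there in 48.8% of its KO cells against 9.15% of its WT cells. On plate sums of cluster 4, Col6a1 had 150 CPM on KO plate 043 against 11.5 CPM on WT plate 044, and Col6a2 had 256 against 72.8 CPM. In cluster 3, led by Lin7a and Rgs4, Col6a1 had 43.8 CPM on plate 043 against 8.14 CPM on plate 044, and Col6a2 had 150 against 37.3 CPM. In both clusters each gene was higher on KO plate 043 than on WT plate 044.

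Cluster 1, with the immediate early genes Fosl2 and Fosb in the lead, was the only cluster with at least 5 cells on every plate. Its Col6a1 level was 0.447, 37.2 and 104 CPM on KO plates 043, 467 and 471, against 0, 0.193 and 0.0759 CPM on WT plates 044, 468 and 469. KO plate 043 gave only 8 of its 272 KO cells. Its Col6a2 level was 85.8, 128 and 137 CPM on KO plates against 112, 18.4 and 2.66 CPM on WT plates, so KO plate 043 lay below WT plate 044 there, where the value came from 1 of 5 cells. With smooth muscle-like cells limited to this cluster, an alternative chosen after seeing the data, the log2 differences over plates were 4.07 for Col6a1 and 2.58 for Col6a2.

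Cluster 9, led by Ptgs2 and Rarres1, held the highest share of cells with Col6a1, 60.9% of 69 KO and 37.5% of 8 WT cells. Its Col6a1 level was 300, 338 and 215 CPM on KO plates, against 94.5 CPM on WT plate 044, where all 8 WT cells lay. Cluster 10, led by Pappa2 and Dmp1, had Col6a1 in 38.5% of 39 KO cells and 7.69% of 26 WT cells, and Col6a2 in 48.7% against 34.6% of the same cells. In all 5 clusters the KO share exceeded the WT share for both genes, although the exact intervals of KO and WT overlapped in clusters 9 and 10.

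**Figure D2:**
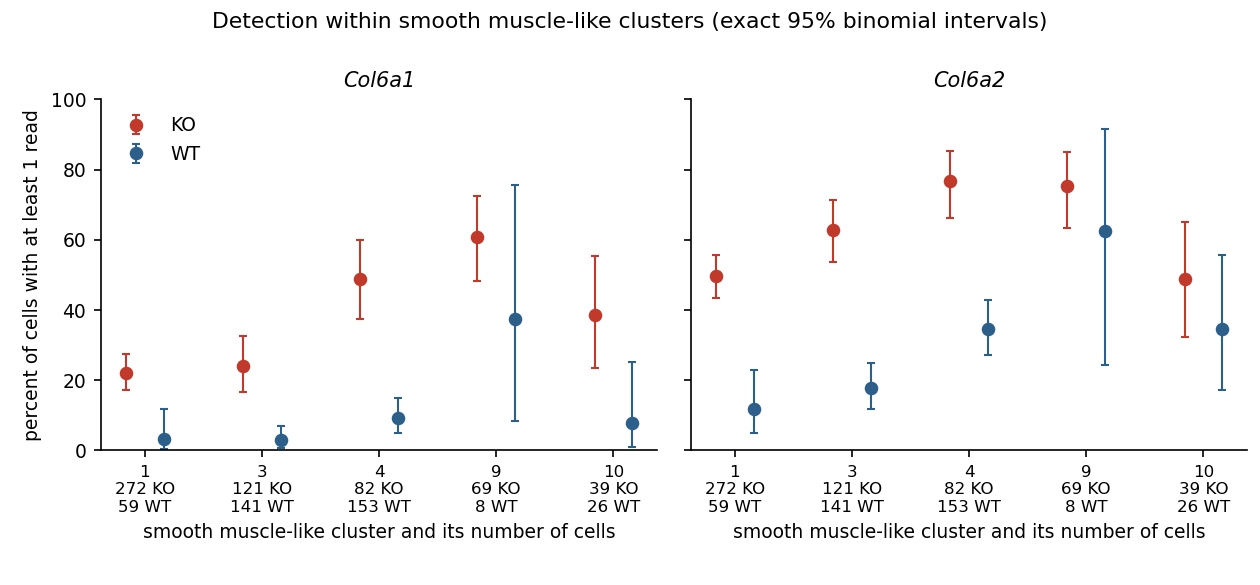
Percent of cells with at least 1 read of Col6a1 or Col6a2 in each of the 5 smooth muscle-like clusters, KO in red left of WT in blue, with exact 95% binomial intervals for counting error and the number of cells under each cluster. KO shares lie above WT shares in each cluster, from 22.1% against 3.39% for Col6a1 in cluster 1 to 60.9% against 37.5% in cluster 9, where WT had 8 cells.

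Fibroblast-like cells had more Col6a1 and Col6a2 than smooth muscle-like cells on every plate, so fibroblast markers are set beside the smooth muscle-like values. The summed level of 14 fibroblast markers in smooth muscle-like cells was 2772, 1757 and 1331 CPM on KO plates 043, 467 and 471, against 1735, 1060 and 857 CPM on WT plates 044, 468 and 469. In CPM KO plate 471 lay below WT plate 044. As a percent of the same sum in fibroblast-like cells of the plate it was 17.6%, 13.3% and 12.9% on KO plates, against 11.2%, 7.37% and 7.44% on WT plates, so on this scale each KO plate lay above each WT plate, as for Col6a1 and Col6a2. Of these markers 14, 14 and 14 had reads on the KO plates and 13, 6 and 11 on the WT plates. WT plates 468 and 469 had only 20 and 40 smooth muscle-like cells, so fewer markers could be read there. Pdgfra, Slc6a13, Slc22a6, Mfap5, Pi16, Fbln1, Dpep1 and Aebp1 were at 0 on plate 468, and Slc6a13, Mfap5 and Dpep1 on plate 469. Dcn, the gene of the proteoglycan decorin, was read in 33.8% of KO cells and in 21.4% of WT cells of the smooth muscle-like class. Its level there was 4.13, 4.48 and 1.44 CPM on KO plates against 1.35, 8.54 and 0.824 CPM on WT plates. Lum and Pdgfra were lower than Dcn on every plate, so most of the marker sum came from the other listed markers.

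Per plate, Dcn in smooth muscle-like cells stood at 0.16%, 0.20% and 0.09% of its fibroblast-like level on KO plates, against 0.06%, 0.24% and 0.04% on WT plates. Col6a1 stood at 14.3%, 13.2% and 14.8% of its fibroblast-like level on KO plates, against 2.32%, 0.05% and 0.01% on WT plates. Col1a2, a type I collagen gene, stood at 16.3%, 18.2% and 14.5% on KO plates, against 11.7%, 11.8% and 12.5% on WT plates. On KO plates Lum stood at 0.08%, 0.04% and 0.02%, Pdgfra at 0.03%, 0.04% and 0.04% and Col1a1 at 0.32%, 0.42% and 0.12%. WT plates had 0.02%, 0.01% and 0.01% for Lum, 0.03%, 0% and 0.01% for Pdgfra and 0.01%, 0.13% and 0.09% for Col1a1. On KO plates the Col6a1 ratio was thus near those of Col1a2 and of the marker sum. It lay above those of Dcn, Lum, Pdgfra and Col1a1. The part of the fibroblast markers in the chains' difference was not tested. With each cell that had a read of Dcn, Lum or Pdgfra left out, again chosen after seeing the data, the log2 difference was 5.35 for Col6a1 and 3.26 for Col6a2. Of the 186 KO cells with Col6a1, 42.5% had a read of at least 1 of those 3 markers, and of the 397 KO cells without it, 39.8% had one. The median summed fibroblast marker level was 2049 CPM in KO cells with Col6a1 and 1705 CPM in those without. For Col6a2 these KO medians were 1960 and 1631 CPM, and the shares with any of the 3 markers were 42.9% and 37.4%. In WT cells the medians were 1560 and 1304 CPM for Col6a1 and 1283 and 1315 CPM for Col6a2. The WT shares were 32.0% and 23.2% for Col6a1 and 26.3% and 22.9% for Col6a2.

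In fibroblast-like cells Col6a1, Col6a2 and Col6a3, the classical chains, were read in both genotypes at levels that overlapped. Col6a1 had 831, 591 and 785 CPM on KO plates 043, 467 and 471, against 572, 636 and 724 CPM on WT plates 044, 468 and 469, a log2 difference of 0.18. Col6a2 had 783, 370 and 537 CPM on KO plates against 618, 573 and 388 CPM on WT plates, a log2 difference of 0.06. Col6a1 was read in 98.5% of 131 KO and 97.4% of 39 WT cells and Col6a2 in 93.9% of KO and 89.7% of WT cells. None of the 3 chains with enough reads met the size rule, which 5.02% of 11194 genes met as higher in KO and 1.66% as lower. KO plates lay wholly above WT plates for 7.26% of these genes and wholly below for 3.21%.

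Col6a3 in fibroblast-like cells had 70.7, 97.8 and 80.0 CPM on KO plates, against 75.6, 36.6 and 42.3 CPM on WT plates. WT plate 044 lay among the KO plates and the other WT plates below them. It came from few cells, 36 of 131 in KO and 8 of 39 in WT, with a median of 147 CPM in those KO cells and 270 CPM in those WT cells. A single cell held 81.7% of the Col6a3 reads on KO plate 471 and 100% of those on WT plate 468. Without the highest cell of each plate the log2 difference was 2.16, against 0.73 with all cells, so this value rests on single cells.

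Col6a5 reached at most 0.34 CPM on any plate of fibroblast-like cells. Col6a6 had 5.63, 0.628 and 0 CPM on KO plates against 0, 45.3 and 34.8 CPM on WT plates, from 3 of 131 KO cells and 3 of 39 WT cells. On each plate with Col6a6 reads at least 97.5% of them came from 1 cell, so these levels describe single cells.

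To compare chains with each other, levels were divided by the length of the gene's exons in kilobases. In fibroblast-like cells the order was Col6a1 above Col6a2 above Col6a3 on each of the 6 plates. Col6a1 had 190, 135 and 179 CPM per kb on KO plates and 131, 145 and 165 on WT plates. Col6a2 had 94.0, 44.4 and 64.5 CPM per kb on KO plates and 74.2, 68.8 and 46.6 on WT plates. Col6a3, at 5.91, 8.18 and 6.69 CPM per kb on KO plates and 6.32, 3.06 and 3.54 on WT plates, was at least 16.5 times below Col6a1 on every plate.

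Smooth muscle-like cells had a different balance. Col6a1 per kb was 1.07, 0.970 and 1.65 times Col6a2 on KO plates, against 0.372, 0.0400 and 0.0543 times on WT plates. In fibroblast-like cells the same ratio was 2.02, 3.04 and 2.78 on KO plates and 1.76, 2.11 and 3.55 on WT plates. The KO smooth muscle-like ratio thus lay above that of WT smooth muscle-like cells and below that of fibroblast-like cells, on each plate. The WT ratios of plates 468 and 469 rest on the 2 reads and 1 read of Col6a1 given above.

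Within single smooth muscle-like cells the chains were seen together in part. Of 583 KO cells, 21 (3.60%) had a read of all 3 classical chains, 115 (19.7%) had Col6a1 and Col6a2 without Col6a3, 43 (7.38%) had Col6a1 alone and 197 (33.8%) had Col6a2 alone. None of the 3 was read in 182 KO cells (31.2%). Among the 387 WT cells, 2 (0.517%) had all 3, 12 (3.10%) had Col6a1 and Col6a2, 10 (2.58%) had Col6a1 alone, 76 (19.6%) had Col6a2 alone and 275 (71.1%) had none. The most frequent state with any chain was Col6a2 alone in both genotypes.

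In fibroblast-like cells nearly every cell had both Col6a1 and Col6a2. All 3 chains were read in 32 of 131 KO cells (24.4%) and 8 of 39 WT cells (20.5%), and Col6a1 with Col6a2 alone in 89 KO cells (67.9%) and 27 WT cells (69.2%). No KO cell and 1 WT cell lacked all 3.

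**Figure D3:**
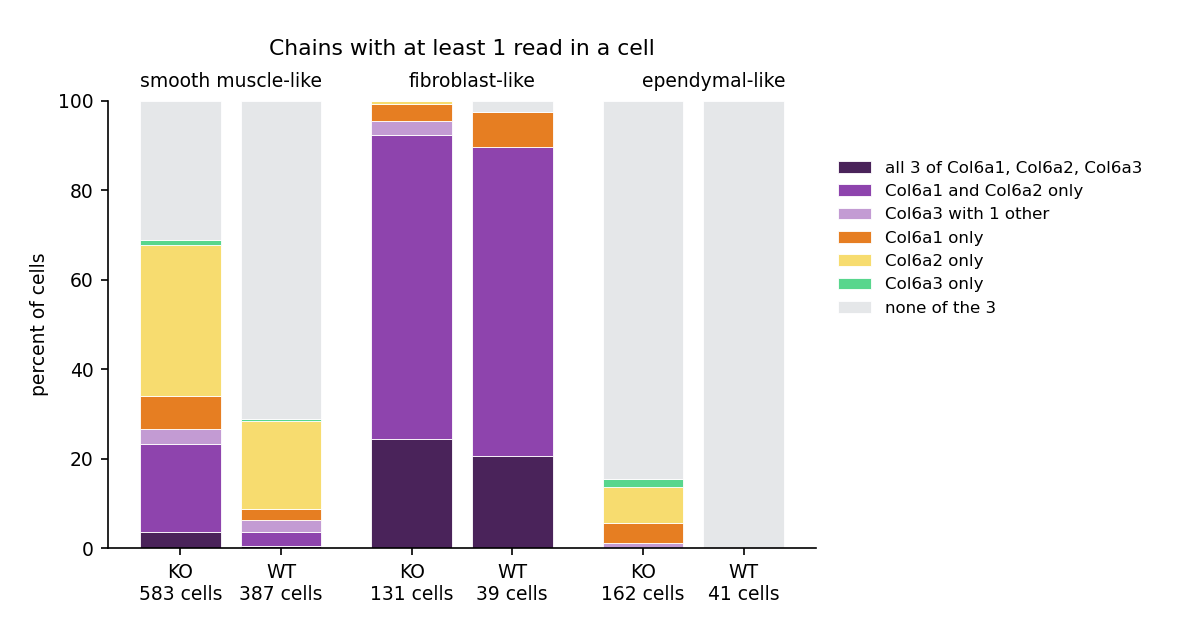
Percent of cells with each combination of Col6a1, Col6a2 and Col6a3 reads, KO left of WT for each class. Cells without any of the 3 chains made up 31.2% of the KO bar and 71.1% of the WT bar in smooth muscle-like cells, while nearly all fibroblast-like cells had both Col6a1 and Col6a2.

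Col6a2 was read more often in cells with Col6a1 than in cells without it. In KO smooth muscle-like cells it was read in 136 of the 186 cells with Col6a1, or 73.1% (exact interval 66.1% to 79.3%), and in 52.6% of cells without Col6a1 (47.6% to 57.6%). After thinning to 50000 counts the shares were 76.0% and 45.7%. In WT cells it was read in 14 of 25 cells with Col6a1, or 56.0% (34.9% to 75.6%), and in 23.5% of those without it (19.2% to 28.2%).

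This co-detection differed among plates and clusters. Col6a2 was read in 73.3% of cells with Col6a1 and 66.2% of cells without it on KO plate 043, in 63.6% and 46.9% on KO plate 467 and in 77.6% and 41.7% on KO plate 471. Within KO cells of cluster 1 the shares were 70.0% with Col6a1 and 43.9% without. They were 62.1% and 63.0% in cluster 3 and 77.5% and 76.2% in cluster 4, so in those 2 clusters Col6a2 was read about as often without Col6a1 as with it. Shares in cluster 9 were 83.3% and 63.0%, and in cluster 10 they were 66.7% and 37.5%.

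Levels in single cells were weakly related. Across 583 KO smooth muscle-like cells the correlation of log2(CPM + 1) of Col6a1 and Col6a2 was r = 0.32 by Pearson and 0.32 by Spearman, and across 387 WT cells it was 0.23 and 0.19. Across 131 KO fibroblast-like cells it was 0.35 and 0.46, and across 39 WT fibroblast-like cells 0.36 and 0.25. These are descriptions across cells that share plates and sequencing depth, not tests. Of the 46 KO smooth muscle-like cells with Col6a3, 28 (60.9%) had Col6a1 and 33 (71.7%) had Col6a2, and of the 36 KO fibroblast-like cells with Col6a3, 35 had Col6a1.

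**Figure D4:**
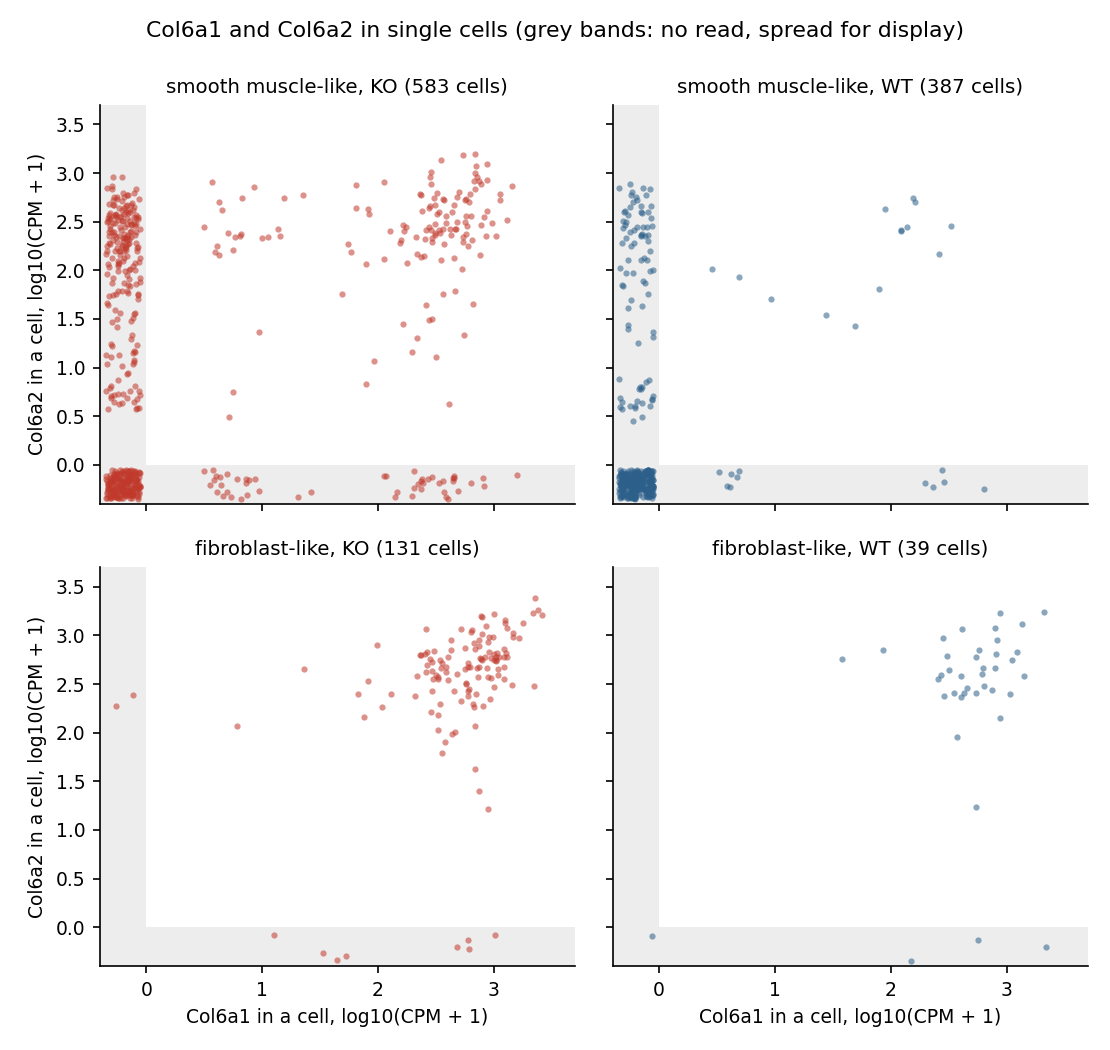
Col6a1 against Col6a2 in single cells as log10(CPM + 1), KO panels left of WT panels, with cells without a read spread inside grey bands. Fibroblast-like cells form 1 cloud with both chains, while smooth muscle-like cells are split between no chain, Col6a2 alone and both, with 115 KO and 12 WT cells that had Col6a1 and Col6a2 without Col6a3.

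Col6a5 had its highest level in ependymal-like cells, the ciliated cells that line the brain ventricles. It had 284, 522 and 310 CPM on KO plates 043, 467 and 471, against 199, 0 and 1.94 CPM on WT plates 044, 468 and 469, with means of 372 ± 130.5 CPM in KO and 66.9 ± 114 CPM in WT (SD, n = 3 plates each). KO plates all lay above WT plates, as for 7.79% of the 11394 genes with enough reads in this class, whereas 4.04% had them all below. WT plate 044 was close to the KO plates: the log2 difference was 0.51 between plates 043 and 044 and 7.88 among the other 4 plates. Col6a5 met the size rule as higher in KO, as did 5.27% of these genes, while 1.57% met it as lower. Without WT plate 468 the log2 difference was 3.89 and without WT plate 044 it was 7.71.

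Col6a5 was read in 62.3% of 162 KO ependymal-like cells (exact interval 54.4% to 69.8%) and in 19.5% of 41 WT cells (8.82% to 34.9%). By plate the shares were 60.9%, 65.7% and 55.0% on KO plates, against 60.0% of 10 cells, 0 of 13 cells (which allows up to 23.1%) and 11.1% of 18 cells on WT plates. Plates 043 and 044 thus had nearly the same share. After thinning to 50000 counts it was read in 58.6% of KO and 17.1% of WT cells. The level in cells with a read had a median of 449 CPM in 101 KO cells and 142 CPM in 8 WT cells. Of those 8 WT cells 6 lay on plate 044, where the median was 275 CPM.

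The ependymal-like cells split at a finer clustering into 2 groups, and the plates filled them unevenly. Finer cluster 4, led by Calb1, a calcium-binding protein gene, and Htr5b, a serotonin receptor gene, held 22, 86 and 37 cells of the KO plates but 10, 1 and 5 cells of the WT plates. Finer cluster 21, led by the cilium genes Dnah12 and Cdhr4, held 1, 13 and 3 cells of the KO plates and 0, 12 and 13 cells of the WT plates. Col6a5 was read in 97 of 145 KO cells (66.9%) and 7 of 16 WT cells (43.8%) of finer cluster 4, and in 4 of 17 KO cells (23.5%) and 1 of 25 WT cells (4.00%) of finer cluster 21. All 10 cells of WT plate 044 lay in finer cluster 4, and 6 of them had Col6a5. Over all plates the mix of these groups and the genotype cannot be told apart. Finer cluster 4 gave 1 cell on plate 468 and 5 on plate 469, and finer cluster 21 gave 0 on plate 044.

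Calb1 was read in 85.8% of the KO and 48.8% of the WT ependymal-like cells, and Htr5b was read in 61.1% and 19.5%. Calb1 was present in 94 of the 101 KO cells and all 8 of the WT cells with Col6a5. Htr5b was read in 77 of those 101 KO cells and in 4 of those 8 WT cells. Of the 61 KO cells without Col6a5, 45 had Calb1 and 22 had Htr5b. Of the 33 WT cells without Col6a5, 12 had Calb1 and 4 had Htr5b. Ccdc153, a marker of motile cilia, had 860, 1133 and 903 CPM on KO plates against 1003, 1059 and 967 CPM on WT plates, which overlap. By plate Calb1 was read in 100%, 82.8% and 85.0% of cells on KO plates 043, 467 and 471, against 100%, 30.8% and 33.3% on WT plates 044, 468 and 469. Htr5b was read in 47.8%, 63.6% and 62.5% on KO plates, against 60.0%, 0% and 11.1% on WT plates. Over pooled cells both differed in the same direction as Col6a5, but between plates 043 and 044 Calb1 was equal and Htr5b lower in KO. The part of either in the Col6a5 difference was not tested.

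**Figure D5:**
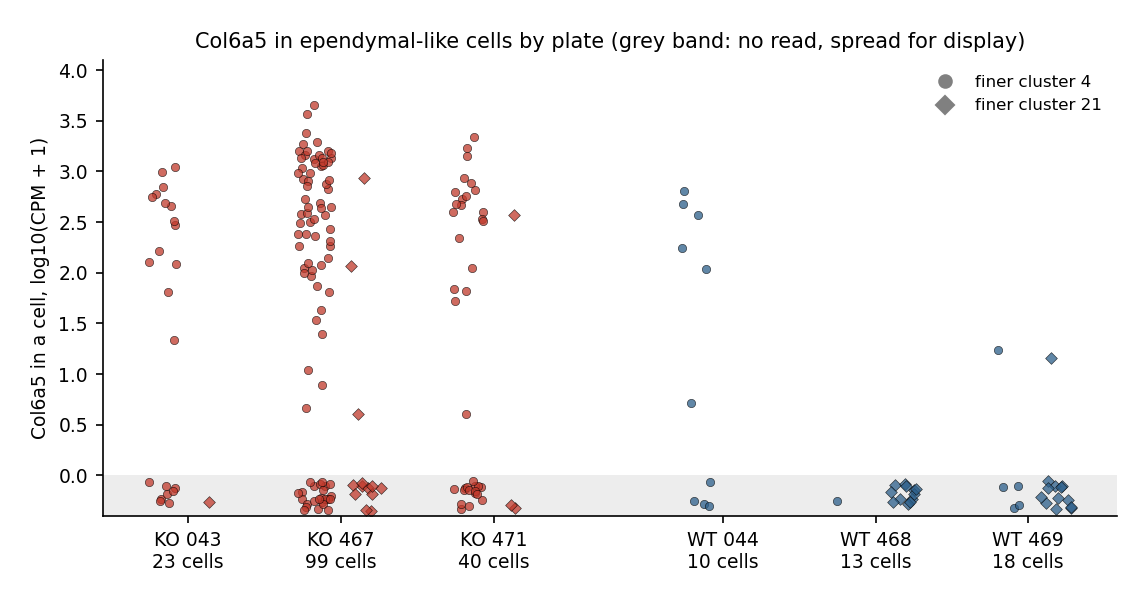
Col6a5 in each ependymal-like cell as log10(CPM + 1), KO plates in red left of WT plates in blue, with circles for finer cluster 4, diamonds for finer cluster 21 and cells without a read spread inside the grey band. WT plate 044 had Col6a5 in 60.0% of its 10 cells, WT plate 468 in 0 of 13 and WT plate 469 in 11.1% of 18.

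The other chains were low in ependymal-like cells. Col6a1 had 0.124, 2.15 and 0.881 CPM and Col6a2 0.866, 0.802 and 0.503 CPM on the KO plates, and both were at 0 on all 3 WT plates. A Col6a1 read was found in 4.94% of KO cells, with 72.7% of its 66 reads in 1 cell, and in 0 of 41 WT cells, which allows up to 7.32%. The WT astrocyte-like share, 2.66% of 263 cells, came only from plates 468 and 469 and gives no background for the KO plates. Col6a3 had 0, 0.211 and 8.43 CPM on the KO plates and Col6a6 0, 0.211 and 2.08 CPM, and both were at 0 on all 3 WT plates. On plate 471, 67.2% of the Col6a3 reads and 100% of the Col6a6 reads came from 1 cell. Of 162 KO cells 83 (51.2%) had Col6a5 without any of the classical chains and 18 (11.1%) had it with at least 1, and all 8 WT cells with Col6a5 had it alone.

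Endothelial-like cells allowed no comparison of plates. They numbered 9, 3 and 1 on the KO plates and 3, 45 and 97 on the WT plates, so no KO plate reached the 10 cells needed. Col6a1 was read in 1 of 13 KO and 9 of 145 WT cells, at 1.12 CPM in KO and 1.26 CPM in WT over all cells. Col6a2 was read in 4 of 13 KO cells, with 84.7% of its reads in 1 cell, and in 5 of 145 WT cells. Col6a3 was read in 1 KO and 0 WT cells, Col6a5 in 1 KO and 1 WT cell, and Col6a6 in 0 KO and 3 WT cells.

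Col6a1 and Col6a2 were also read in small clusters that took no class name. The highest Col6a1 level was in cluster 17, led by the transporter gene Slc47a1, with 1381 CPM on WT plate 468 and 1338 CPM on WT plate 469, and it was read in all 19 cells of that WT cluster. Cluster 16, led by Steap4, Ccl19 and Kcnj8 and almost wholly from KO plates, had 318 CPM of Col6a1 and 483 CPM of Col6a2. Each of these small clusters held cells of mainly 1 genotype, so neither allows a comparison of genotypes.

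Cluster 6 was led by Mir143hg, a microRNA host gene of smooth muscle, and the pericyte marker Higd1b. It had Col6a2 at 225, 125 and 120 CPM on KO plates 043, 467 and 471, against 105, 0 and 0 CPM on WT plates 044, 468 and 469, and 94.9% of its WT reads lay in 1 cell. Col6a1 in the same cluster was at 1.41, 15.0 and 55.1 CPM on KO plates, against 1.93, 0 and 0.407 CPM on WT plates. Pericyte-like cells had Col6a2 in 6 of 6 KO cells at 324 CPM and in 5 of 28 WT cells at 37.9 CPM. With 6 KO cells this is a description of those cells.

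Col6a6 was read in few cells of the classes above. On KO plate 471 it was read in 4 of 10 oligodendrocyte-like cells, at 32.7 CPM, and Col6a5 was read in 5 of them, at 26.0 CPM. Among WT oligodendrocyte-like cells Col6a6 was read in 3 of 39 and Col6a5 in 0 of 39, which allows up to 7.69%. The 10 cells were shallow and yet rich in detected genes, with a median of 57495 counts and 5960 genes, and the part of that in the result was not tested.

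Genes that serve collagen VI in its making and binding were described from lists, each beside all genes with enough reads. In smooth muscle-like cells 2.37% of all those genes were higher in KO by the size rule and 0.94% lower, and their median log2 difference was 0.08. Of 20 receptors and partners of collagen VI, such as the anthrax toxin receptors and the integrins, 10 had enough reads in smooth muscle-like cells, none met the size rule and the median log2 difference was 0.40. Of 26 folding, processing and secretion genes, 23 had enough reads and 1 was higher in KO, a count near the share over all genes, with a median of 0.25. That gene was Loxl2, a lysyl oxidase that crosslinks collagen. It had 17.4, 12.6 and 9.79 CPM on KO plates against 2.55, 0.168 and 0.253 CPM on WT plates. Loxl2 reached the floor of 10 CPM only in KO cells, since its WT mean was 0.992 CPM.

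Other collagens and basement membrane genes also had members that met the rule in this class, against the 2.37% higher and 0.94% lower over all genes. Of 13 fibrillar and fibril-associated collagens 8 had enough reads and 2 were higher in KO, with a median log2 difference of 0.80. Col3a1, the type III fibrillar collagen gene, had 575, 262 and 317 CPM on KO plates against 219, 126 and 56.2 CPM on WT plates, a log2 difference of 1.64, and Col8a1, a network-forming collagen gene, differed by 1.51. Of 14 basement membrane genes 12 had enough reads and 3 were higher in KO, the laminin chains Lamb1 by 3.47 and Lama2 by 2.41 and the nidogen Nid1 by 1.02, with a list median of 0.11. Matn2, a matrilin gene and the only one of 9 von Willebrand A domain genes with enough reads, was higher by 1.34.

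In fibroblast-like cells, where the collagen VI genes overlapped between genotypes, 15 of the receptors and partners had enough reads and 3 were higher in KO, with a median of 0.19 against 0.20 over all genes. Over all genes of this class 5.02% were higher and 1.66% lower. Fn1, the fibronectin gene, had 1013, 973 and 1669 CPM on KO plates against 415, 220 and 334 CPM on WT plates, a log2 difference of 1.91. Cspg4, the NG2 proteoglycan gene, differed by 2.07 and the fibrillin gene Fbn1 by 1.18. Of 24 folding and processing genes with enough reads 1 was higher, the procollagen protease Bmp1, by 1.12, a count near the share over all genes. Of the 13 genes listed as fibrillar and fibril-associated collagens 1 was lower, Col15a1, by -3.18. None of 13 basement membrane and 3 von Willebrand A domain genes met the rule.

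In ependymal-like cells the median over all genes was 0.18, and 5.27% of all genes were higher in KO and 1.57% lower. Here none of 8 receptors and partners with enough reads met the rule. Of 19 folding and processing genes 1 was higher in KO, near the share over all genes, the prolyl hydroxylase P3h2, by 3.74, although 29.6% of KO cells and 31.7% of WT cells had a read of it. Of 6 fibrillar and fibril-associated collagens Col12a1 was higher by 2.96 and Col5a2 by 1.33. Of 10 basement membrane genes Col4a4 was higher by 3.16 and Lamb1 lower by -1.35, and none of 3 von Willebrand A domain genes met the rule. P3h2, Col12a1 and Col4a4 reached the floor of 10 CPM only in KO cells, with WT means of 1.52, 5.40 and 6.21 CPM.

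Genes with the most similar pattern were found by Pearson correlation of log2(CPM + 1) over 29 sums of a named class on a plate, among 19273 genes. For Col6a1 these were Gm2564 (r = 0.94), Omd, a small leucine-rich proteoglycan gene (0.94), Cyp1b1 (0.93), Col6a2 (0.92) and Tfap2b (0.91). For Col6a2 they were Col3a1 (0.95), Nupr1 (0.94), C1qtnf1 (0.94), Gm11747 (0.93) and Snai1 (0.92), and Col6a1 came next at 0.92. Col6a3 had Ctsk, the protease cathepsin K (0.91), Postn, the matrix protein periostin (0.89), Col6a1 (0.88), Col6a2 (0.85) and Fhl2 (0.85). By this measure the 3 classical chains were near each other.

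The other 2 members, Col6a5 and Col6a6, lay apart from them. Col6a5 was closest to Shisa6 (r = 0.96), Krt15 (0.95), Treml1 (0.95), Gtf2a1l (0.94) and 1700016G14Rik (0.94), and its correlation was -0.28 with Col6a1 and -0.37 with Col6a2. Col6a6 was closest to Shisa2 (0.81), Atp2a1 (0.80), RP23-237H9.2 (0.79), Fkbp6 (0.78) and Pax9 (0.78), over levels that rest on few cells. The 29 sums share plates and classes, so these values describe likeness over these cells only.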

How the data were processed

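The authors deposited 1 table of raw counts of reads, with gene symbols in rows and cells in columns. Per the submitters' processing notes, the tools were TopHat2 2.1.1, SAMtools 0.1.18 and featureCounts from Subread 1.4.6-p5, on GRCm38 (mm10); the annotation and strand setting are not given in the sources used here. Totals per cell ran from 49473 to 763059 counts, and plate medians from 250864 to 358168. Cells needed 50000 counts and 1000 detected genes, which kept 2252 of 2254. No 2 columns were identical, and no doublet caller was run, as wells were filled by sorting single cells. All 382 well names occur on more than 1 plate, as positions do.

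Cells were clustered without Notch3 and the collagen VI genes on 2000 variable genes, 30 principal components, 20 neighbours and the Leiden method (scikit-learn 1.9.0, igraph 0.11.9, leidenalg 0.10.2). Resolution 1 gave 17 clusters, and resolution 2 the finer ones. A cluster took the name of the best of 14 marker lists if its mean level, scaled to the highest cluster, reached 0.8, at least 3 markers were read in 25% of its cells, and no other list had more genes among its top 10. The naming rule was settled with the cluster tables in view, and the names are rebuilt, not the authors'. Counts were summed per class and plate from 10 cells up, and scaled to CPM with TMM factors (edgeR 4.0.16, R 4.3.3). Values for single clusters, for endothelial-like, pericyte-like and oligodendrocyte-like cells and for single cells are CPM of plain totals. Differences are KO minus WT of the mean log2(CPM + 1) over plates, and the pseudocount of 1 CPM shrinks those of weakly read genes. Exon lengths came from GENCODE M21, which matched 27956 symbols (90.3%).

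With 1 sample per genotype no test was made. Members and lists were chosen with earlier results of these data known. Named genes were the members, Notch3, the gating markers, up to 4 genes per list and class past the size rule, and the 5 most similar genes per member; Calb1, Htr5b and the genes that lead clusters were named after their values were seen. Exact intervals are Clopper-Pearson at 95%, and a count of 0 allows 3 cells of the group. Alternatives were DESeq2 1.42.0 size factors, plain totals, pseudocounts of 0.1 and 5, other filters, gates at 100 CPM of 1 marker, each plate left out, and cells high (99th percentile) in a second class left out. The sixth family gene of the table, Col6a4, had 223 reads in 14 cells and was not used further.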

Additional observations from a re-analysis of the deposited data

Results flagged for a closer look

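Lamb1, the laminin β1 chain gene, moved in opposite directions in different classes. In smooth muscle-like cells it had 24.6, 28.1 and 40.2 CPM on KO plates 043, 467 and 471, against 8.78, 0 and 1.33 CPM on WT plates 044, 468 and 469. In ependymal-like cells it had 24.4, 56.7 and 30.3 CPM on KO plates, against 66.8, 144 and 75.8 CPM on WT plates. Every KO plate lay above every WT plate in smooth muscle-like cells and below every WT plate in ependymal-like cells. The KO minus WT log2 difference was 4.81 larger in smooth muscle-like cells, and this difference was not tested.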

How the results depend on the processing

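No paired analysis was possible because no test was made and the labels number no replicates. No difference of a chain that met the size rule changed sign. Of the recomputed chain differences 123 moved by less than the spread of plates and 9 by more. Plates 043 and 044 alone gave log2 differences of 3.07 for Col6a1, 1.63 for Col6a2 and -0.30 for Col6a3 in smooth muscle-like cells, 0.54 for Col6a1 and -0.10 for Col6a3 in fibroblast-like cells and 0.51 for Col6a5 in ependymal-like cells. Without the highest cell of each plate, Col6a2 in smooth muscle-like cells was 5.06 and Col6a3 in fibroblast-like cells 2.16, and a pseudocount of 0.1 CPM took Col6a3 in smooth muscle-like cells to 4.64. Leaving out each plate in turn gave 4.57 to 6.44 for Col6a1, 2.27 to 4.48 for Col6a2 and 1.90 to 3.71 for Col6a3 in smooth muscle-like cells. In fibroblast-like cells it gave 0.09 to 0.33, -0.21 to 0.33 and 0.53 to 1.04 for the same genes, and for Col6a5 in ependymal-like cells 3.89 to 7.71.

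Genes that met the size rule numbered 317 in smooth muscle-like, 748 in fibroblast-like and 779 in ependymal-like cells. Leaving out each plate gave 383 to 1170, 1037 to 2210 and 1057 to 1819 in the same order. Plates 043 and 044 alone gave 2849 in fibroblast-like and 4009 in ependymal-like cells, and the other 4 plates alone 1240, 2443 and 2055. With no filter on low counts they were 843, 1241 and 1365. Cells high in a second class left out gave 1416 in fibroblast-like and 2068 in ependymal-like cells, where 1 WT plate fell under 10 cells. In smooth muscle-like cells, single-marker gates gave 205 and clusters with at least 5 cells on every plate 709. The count therefore depends on the plates used, and WT plates 468 and 469, with 20 and 40 smooth muscle-like cells, limit the precision of the values above.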
